A study of Mus musculus with 6 samples.

Results

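Germ cell and pluripotency genes were read out in 2 fractions of sorted endothelial cells from mouse embryos at embryonic day 12.5. The group held 34 genes of the 23420 in the deposited count table, taken by gene symbol whatever their level. They had been chosen with their values in this contrast in view, so their levels are given as a description. Calls of the test over all genes are counted for them once and support nothing here. All embryos carried Csf1r-iCre, in which the promoter of Csf1r drives a Cre recombinase, together with a Rosa26 reporter (RosatdTomato) that makes the red protein tdTomato after recombination, and no group lacked either allele. Because Csf1r is a myeloid gene, the reporter marks cells that expressed Csf1r and their descendants. Cells of whole embryos that carried PECAM1 and lacked CD45, CD11b and KIT were sorted into tdTom+ and tdTom- cells, with 3 libraries of each, numbered 1 to 3. The sources used here do not tie a number to 1 embryo, and a p-value here measures only the spread between these libraries.

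Primordial germ cells are the embryonic precursors of eggs and sperm. By midgestation in the mouse they have settled in the gonadal ridges, where they still express a network of pluripotency genes that somatic cells have shut off, and switch on genes for the control of germ cell RNA, for the silencing of transposons by piRNAs and, later, for meiosis. They are known to carry both PECAM1, the protein selected for in this sort, and KIT, the protein selected against. In bulk libraries fewer cells of a type and less RNA per cell cannot be told apart, and which cells gave the transcripts described here was not tested.

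Levels are given as counts or as counts scaled to the library total (CPM), and library totals ran from 8919887 to 11767956 counts, so a floor of 3 counts in 1 library was 0.255 to 0.336 CPM. Counts come from amplified cDNA without molecular identifiers, and floors and intervals cover counting error only. Both fractions had endothelial transcripts at like levels: the summed CPM of 15 endothelial core genes was 10167 to 10700 in tdTom+ and 10224 to 10496 in tdTom- libraries, and none of the 15 passed the test described further down (edgeR, 0 called; 1 lower and 0 higher at an unadjusted p under 0.05, and 0 by DESeq2). Pecam1 counts ran from 8224 to 10052 in the tdTom+ and from 8577 to 10514 in the tdTom- fraction. Kit, although gated against, had 890 to 1023 and 1108 to 1435 counts. Ptprc, which encodes CD45, had at most 4 and 22 counts, and Itgam, which encodes CD11b, at most 6 and 12. In both groups the library numbered 3 stood apart by sex, with 1224 and 571 counts of Xist and at most 12 of Ddx3y, where the libraries numbered 1 and 2 had at most 8 and at least 1204.

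The DNA in front of the genes shows a feature that the choice of genes did not use. RefSeq windows (GRCm38.p6, the assembly also called mm10) were found for 19 of the 34 genes, and the 250 bases before the start were searched. The RefSeq start lay kilobases from the start in GENCODE M21 for Rhox5 (37754608 against 37804842), Prdm1 (44458748 against 44528501) and Nanos3 (84176552 against 84185217). Whether these RefSeq starts are used in these cells was not tested. The palindrome CACGTG, an E-box bound by dimers that contain MAX, was present before 7 of the 19 genes (36.8%), against 6.04% of all 27025 windows and 8.55% of the 9754 windows of genes abundant enough to test. The 7 genes were Ddx4, Stk31, Fkbp6, Mael, Mov10l1, Tdrd9 and Hormad1, and Fkbp6, Hormad1 and Tdrd9 held 2 copies each. All 7 belong to the 10 genes of germ cell identity, piRNA or meiosis that had a window, and none to the 9 genes of specification, pluripotency or the Rhox family. The sequences below are the 120 bases before the start, 5′ to 3′ on the strand of the gene, for 5 genes whose E-box lies within them and for Dazl and Pou5f1, which had none in their windows. Capitals mark CACGTG and, in Hormad1, also TTCCCGC on the other strand.
Ddx4 (chr13:112652311-112652430, minus strand): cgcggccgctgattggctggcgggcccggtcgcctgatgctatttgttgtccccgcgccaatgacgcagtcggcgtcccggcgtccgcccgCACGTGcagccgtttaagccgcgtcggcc
Stk31 (chr6:49395419-49395538, plus strand): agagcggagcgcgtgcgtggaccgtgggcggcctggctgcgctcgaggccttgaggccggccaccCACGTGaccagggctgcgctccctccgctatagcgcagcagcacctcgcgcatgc
Fkbp6 (chr5:135350045-135350164, minus strand): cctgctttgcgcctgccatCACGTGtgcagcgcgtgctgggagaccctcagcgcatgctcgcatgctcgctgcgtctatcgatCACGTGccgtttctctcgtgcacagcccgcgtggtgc
Tdrd9 (chr12:111971439-111971558, plus strand): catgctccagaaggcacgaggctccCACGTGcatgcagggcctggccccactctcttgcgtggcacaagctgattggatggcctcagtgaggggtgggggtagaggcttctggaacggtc
Hormad1 (chr3:95559557-95559676, plus strand): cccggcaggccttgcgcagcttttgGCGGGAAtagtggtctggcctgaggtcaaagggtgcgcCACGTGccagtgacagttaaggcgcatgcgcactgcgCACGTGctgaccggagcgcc
Dazl (chr17:50293621-50293740, minus strand): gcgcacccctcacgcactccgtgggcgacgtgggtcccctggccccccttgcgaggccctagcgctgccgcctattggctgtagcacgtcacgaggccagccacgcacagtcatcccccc
Pou5f1 (chr17:35505912-35506031, plus strand): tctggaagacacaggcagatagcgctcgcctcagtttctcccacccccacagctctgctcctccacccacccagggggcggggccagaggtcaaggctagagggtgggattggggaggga
Counted from the start, with -1 as the base before it, the E-box began at -29 in Ddx4 and at -55 in Stk31. The copies of Fkbp6 began at -101 and -37, those of Hormad1 at -57 and -20 and those of Tdrd9 at -165 and -95, of which the first lies outside the stretch shown. The E2F-type motif TTCCCGC, searched on both strands, stood before 2 of the 19 genes (10.5%), Ddx4 and Hormad1. It stood before 3.86% of all windows and 7.31% of those of tested genes. The octamer ATGCAAAT, on either strand, was found before 1 of the 19, Zfp42, and before 1.62% of all windows and 1.26% of those of tested genes. The GC box GGGCGG, on either strand, was before 9 of 19 genes, or 47.4%, against 33.0% of all windows and 60.5% of those of tested genes. The E-box was a match of its own everywhere; in Ddx4 the matches of TTCCCGC and GGGCGG overlap, at -136 and -138. A match is a description of these letters and no measure of binding.

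CG pairs, the target of DNA methylation, were counted in the same windows. The 10 genes of germ cell identity, piRNA or meiosis had a median of 18.5 CG pairs in 250 bases, with Nanos3 lowest at 3 and Ddx4 highest at 31. The other 9 genes had a median of 8 and a highest value of 15. Over all windows the median was 6, with quartiles of 2 and 16, and over windows of tested genes it was 16, with quartiles of 10 and 23, so the median of the 10 genes lay within the range usual for tested genes.

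**Figure D1:**
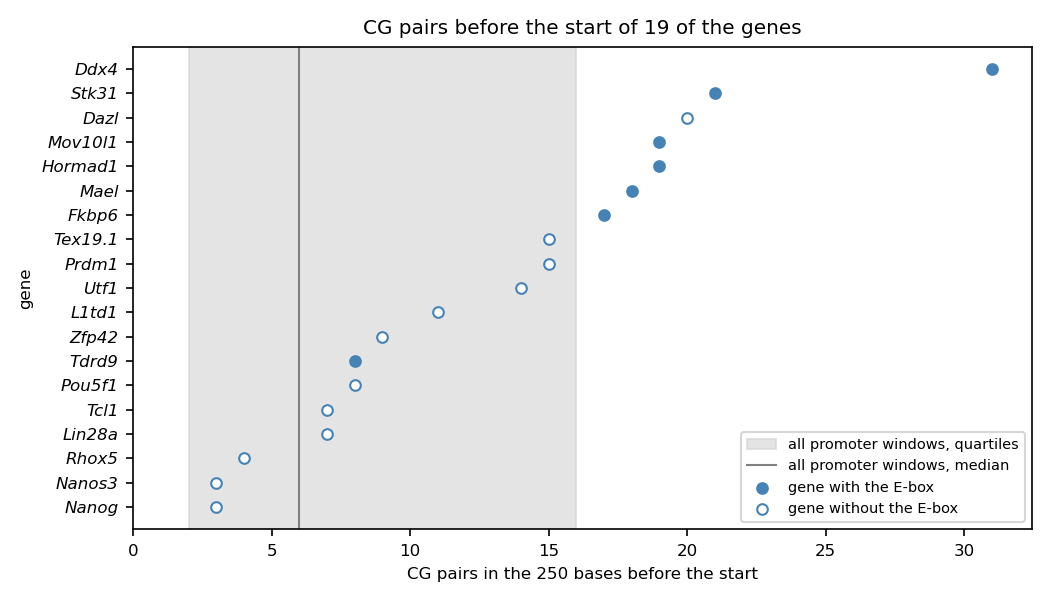
CG pairs in the 250 bases before the start (x axis) of the 19 genes with a RefSeq window (y axis, sorted), with the median and quartiles of all 27025 windows as a line and a grey band. Filled points are genes with the E-box CACGTG; 6 of these 7 lie at 17 CG pairs or more, and Tdrd9 lies at 8.

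In the tdTom- libraries nearly all of the 34 genes gave reads in every library, and in the tdTom+ libraries most gave none. Of the 34, 22 had 0 counts in every tdTom+ library, 6 had 1 to 5 counts over the group and 6 had more. Among the 9948 genes of the table whose tdTom- counts fell in the range of these 34, 2.05% had 0 counts in every tdTom+ library. In 32 of the 34 genes every tdTom- library lay above every tdTom+ library, a pattern seen in 9.68% of all genes with a count; the exceptions were Prdm1 and Tdrd9. Since the genes were chosen on this contrast, these shares are set side by side and nothing is read from them. With genes at 0 set at their bound, the median of the 34 was 30.5-fold lower in tdTom+, from 1.25-fold in Prdm1 to 551-fold in Dppa5a. Over the whole table, tdTom+ libraries 1 to 3 had reads for 15300, 14432 and 14748 genes. The tdTom- libraries had reads for more, at 16070, 16109 and 15850 genes. Counts also varied more among the tdTom+ than among the tdTom- libraries. The part of these differences in the counts of 0 and in the bounds was not tested.

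The low-count filter left 22 of the 34 in the test over all genes, edgeR's quasi-likelihood test on 13142 genes, with p-values adjusted by Benjamini and Hochberg's method and called under 0.05. It listed 18 of these as lower and 0 as higher in tdTom+, where it listed 0.814% of all tested genes as lower, and again nothing is read from this. Without tdTom- library 2 the count was 6 and without tdTom- library 3 it was 3; 5 of the 6 libraries remained in each. The 12 genes left out by the filter were Nanos3, Dmrt1, Mael, Tdrd9, Hormad1, Prdm14, Nanog, Zfp42, Dppa2, L1td1, Lin28a and Gdf3. Tested and not called were Dnd1, Prdm1, Tfap2c and Sall4.

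**Figure D2:**
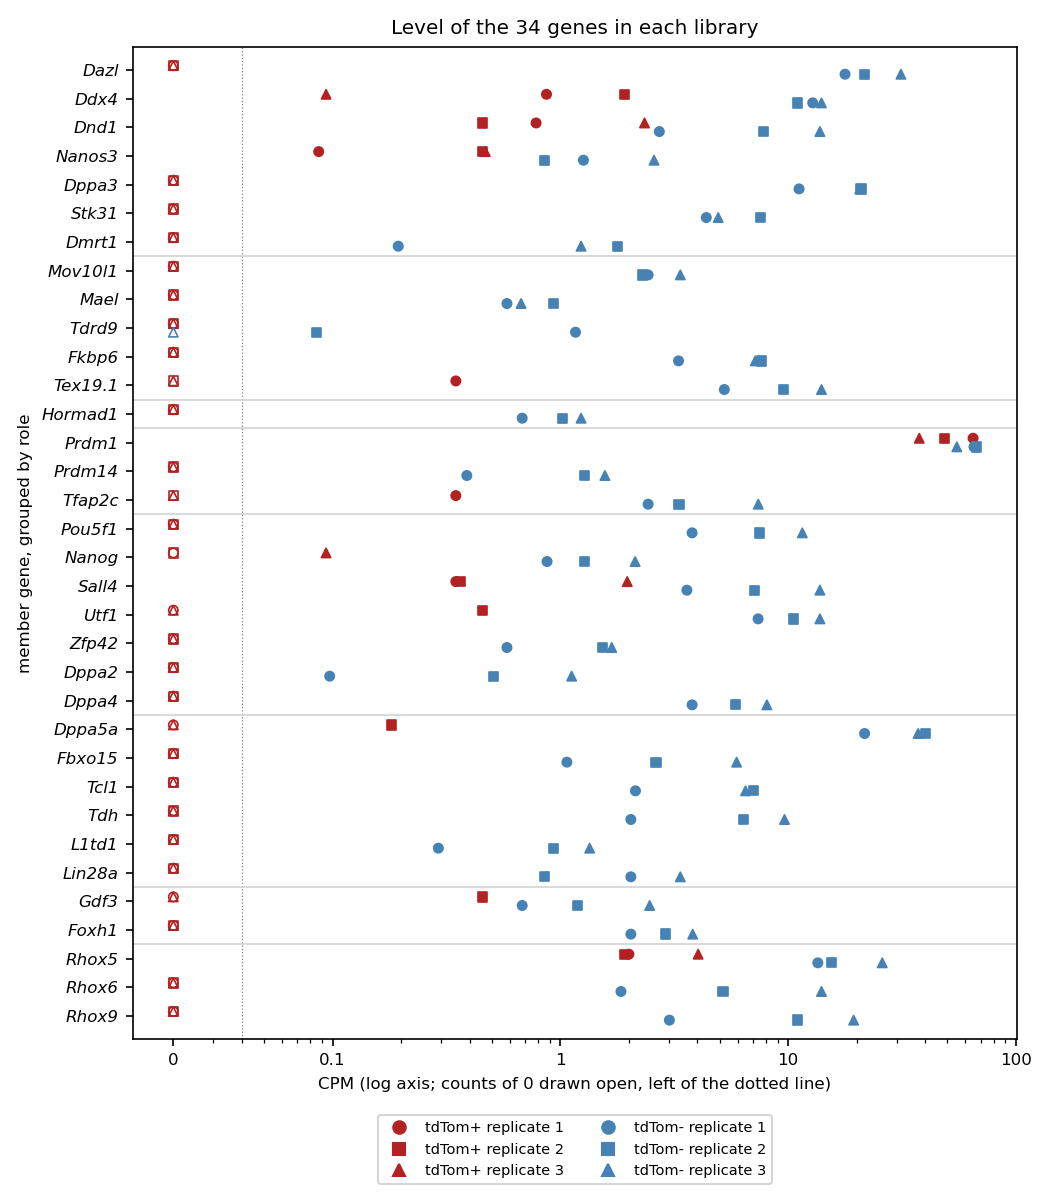
Level of each of the 34 genes (y axis, grouped by role) in CPM on a log axis (x axis), with 1 point per library, tdTom+ in red and tdTom- in blue; open points left of the dotted line are counts of 0. The blue points lie to the right of the red ones in all genes but Prdm1, whose groups overlap, and Tdrd9, where 1 tdTom- library is at 0.

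Genes of germ cell identity and RNA control were led by Dazl (chromosome 17, 50279395 to 50293636, mm10), which encodes an RNA-binding protein that licenses germ cells for sexual development. Dazl had 183, 255 and 279 counts in tdTom- libraries 1 to 3 and 0 in each tdTom+ library, or 23.6 ± 6.95 CPM (SD, n = 3) and at least 256-fold lower in tdTom+, where the bound sets the group's pooled reads at 3. Dppa3, which encodes a protein that guards methylation in egg and early embryo, had 115, 246 and 184 counts in tdTom- and 0 in tdTom+ libraries, or 17.6 ± 5.54 CPM (SD, n = 3), at least 195-fold lower. For Stk31, a tudor-domain kinase gene of the germ line, the tdTom- counts were 45, 89 and 44 and the tdTom+ counts 0, at least 63.6-fold lower. In these 3 genes the groups did not overlap, and the tdTom- libraries differed among themselves by at most 1.87-fold.

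Ddx4, the mouse vasa gene, which encodes an RNA helicase of germ granules, had 132, 129 and 125 counts in tdTom- libraries, the most even of the 7 genes of identity and RNA control. Ddx4 also had reads in the tdTom+ libraries, at 10, 21 and 1 counts, the last below the floor of 3 counts. It was 12.9-fold lower in tdTom+ (counting interval 9.0 to 19). Dnd1, whose protein protects germ cell transcripts from microRNAs, had 28, 92 and 123 counts in tdTom- and 9, 5 and 25 in tdTom+ libraries. The highest tdTom+ library of Dnd1, at 2.34 CPM, came close to its lowest tdTom- library, at 2.72 CPM. Dnd1 shares 140 exon bases with the gene Wdr55 on the other strand, and the kit does not mark strand, so its reads cannot be told apart from those of Wdr55 there. Nanos3, which keeps migrating germ cells alive, had 13, 10 and 23 counts in tdTom- and 1, 5 and 5 in tdTom+ libraries. Dmrt1, a gonadal transcription factor gene, had 2, 21 and 11 counts in tdTom- and 0 in tdTom+ libraries.

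Genes of the piRNA pathway, which silences transposons in the germ line, were low in tdTom- cells and almost without reads in tdTom+ cells. Tex19.1, which guards against retrotransposons, had 54, 112 and 125 counts in tdTom- libraries and 4, 0 and 0 in tdTom+ libraries, or 9.59 ± 4.38 against 0.116 ± 0.201 CPM (SD, n = 3). Fkbp6, a co-chaperone gene of piRNA loading, had 34, 90 and 64 counts in tdTom- libraries, and Mov10l1, the helicase gene of piRNA formation, had 25, 27 and 30. Neither had a count in tdTom+, so that Fkbp6 was at least 67.1-fold and Mov10l1 at least 29.3-fold lower. Mael, which acts in germ granules, had 6, 11 and 6 counts in tdTom- and 0 in tdTom+ libraries. Tdrd9, another helicase gene of the pathway, was the exception within the group: its 13 reads fell as 12, 1 and 0 over the tdTom- libraries, so that it was seen in essentially 1 library. Hormad1, which marks unsynapsed meiotic chromosomes, had 7, 12 and 11 counts in tdTom- libraries and 0 in tdTom+ libraries. Of the 50-base stretches of its transcripts, 22.9% recur in transcripts of other genes.

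The 3 genes of germ cell specification behaved unlike each other. Prdm1, which encodes the repressor that starts the germ cell programme and also acts in several somatic lineages, was abundant in both fractions, at 674, 792 and 491 counts in tdTom- and 746, 534 and 402 in tdTom+ libraries. Its groups overlapped, at 62.6 ± 6.61 and 50.3 ± 13.7 CPM (SD, n = 3). Tfap2c, whose product acts downstream of Prdm1, had 25, 39 and 66 counts in tdTom- and 4, 0 and 0 in tdTom+ libraries. Prdm14, the partner factor that maintains pluripotency genes in germ cells, had 4, 15 and 14 counts in tdTom- and 0 in tdTom+ libraries. Thus 1 of the 3 specification genes carried almost all of their reads, and that one was shared by both fractions.

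Among the pluripotency factors, Pou5f1, which encodes the POU factor of the pluripotent state and is needed for germ cell survival, had 39, 88 and 103 counts in tdTom- and 0 in every tdTom+ library, at least 82.1-fold lower in tdTom+. Its exons share 317 bases with an antisense gene, so strand could not be told apart there. Utf1, a chromatin gene of pluripotent cells, had 76, 124 and 123 counts in tdTom- and 0, 5 and 0 in tdTom+ libraries, or 10.6 ± 3.20 against 0.151 ± 0.262 CPM (SD, n = 3). Sall4, a zinc finger gene, had 37, 84 and 123 counts in tdTom- and 4, 4 and 21 in tdTom+ libraries, and was 9.01-fold lower (counting interval 6.12 to 13.7). Exons of Sall4 share 526 bases with a gene on the other strand, so the same limit holds. Of the 6 genes with more than 5 counts over the tdTom+ group, Sall4, Dnd1, Rhox5 and, narrowly, Nanos3 had their highest tdTom+ CPM in library 3. Ddx4 and Prdm1 had their lowest there.

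The other pluripotency factors were low. Nanog had 9, 15 and 19 counts in tdTom- and 0, 0 and 1 in tdTom+ libraries, a ratio of 46.1 with a counting interval of 7.84 to 1861, since it rests on 1 read in tdTom+. Zfp42, a zinc finger gene used as a mark of naive pluripotency, had 6, 18 and 15 counts in tdTom- and 0 in tdTom+ libraries. Dppa4 and Dppa2, neighbouring genes on chromosome 16 that are 9.671 kb apart and encode partner chromatin proteins, were unequal. Dppa4 had 39, 69 and 72 counts in tdTom- libraries and Dppa2 had 1, 6 and 10, with 0 in tdTom+ for both. Per kilobase of exon, where levels of different genes can be compared, that is 3.55 ± 1.29 against 0.235 ± 0.211 RPKM in tdTom- (CPM divided by the exon length in kilobases, SD, n = 3). Of the 50-base stretches of their transcripts, 31.3% in Dppa4 and 29.1% in Dppa2 recur in transcripts of other genes, mostly predicted ones, which can take reads from either.

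Dppa5a, an RNA-binding protein gene of pluripotent cells, had the highest tdTom- level per length of the 34 genes, at 53.4 ± 16.1 RPKM (SD, n = 3), followed by Rhox5 at 24.3 ± 8.81 and Dppa3 at 19.7 ± 6.21. Rhox5 and Dppa3 do not differ beyond their spread, and 16.5% of the 50-base stretches of Dppa3 recur in transcripts of other genes. The counts of Dppa5a were 223, 473 and 332 in tdTom- and 0, 2 and 0 in tdTom+ libraries, a ratio of 551 (counting interval 152 to 4553). They are uncertain because 38.6% of its 50-base stretches recur in other transcripts, such as those of Dppa5b and Dppa5c. At the low end were Tdrd9 at 0.077 ± 0.12 RPKM and Dppa2.

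Tcl1, a co-activator gene of AKT kinase, had 22, 83 and 58 counts in tdTom- libraries, and Tdh, the threonine dehydrogenase gene on which mouse pluripotent cells depend, had 21, 75 and 86. Fbxo15, a target gene of Pou5f1, had 11, 31 and 53 counts, and L1td1, an RNA-binding protein gene derived from a retrotransposon, had 3, 11 and 12. None of these 4 genes had a read in any tdTom+ library, and in all 4 tdTom- library 1 was the lowest. Lin28a, whose product blocks the microRNA let-7, had 21, 10 and 30 counts in tdTom- and 0 in tdTom+ libraries, and it was lowest in library 2. Exons of Lin28a share 234 bases and those of Tdh 66 bases with a gene on the other strand. Of the 50-base stretches of Tdh, 10.2% recur in transcripts of other genes.

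Gdf3 and Foxh1 belong to Nodal signalling, as a ligand gene and a transcription factor gene. Gdf3 had 7, 14 and 22 counts in tdTom- and 0, 5 and 0 in tdTom+ libraries. Foxh1 had 21, 34 and 34 counts in tdTom- and 0 in tdTom+ libraries, at least 31.8-fold lower. Gdf3, Dppa3 and Nanog lie together on chromosome 6, with gaps of 16.323 kb from Gdf3 to Dppa3 and 77.217 kb from Dppa3 to Nanog, but Dppa3 was far above both. In tdTom- cells Dppa3 had 19.7 RPKM where Nanog had 0.636 and Gdf3 0.597.

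The X-linked Rhox genes encode homeobox proteins of germ line, gonad and placenta. Rhox5 was the member with the clearest signal in tdTom+ cells after Prdm1, with 23, 21 and 43 counts against 139, 183 and 231 in tdTom- libraries. The groups did not overlap, at 2.64 ± 1.2 and 18.3 ± 6.64 CPM (SD, n = 3), and Rhox5 was 6.81-fold lower in tdTom+ (counting interval 5.42 to 8.64). Rhox6 had 19, 61 and 125 counts and Rhox9 31, 129 and 173 in tdTom- libraries, while both were at 0 in all tdTom+ libraries, at least 73.2-fold and 118.9-fold lower. Rhox6 and Rhox9 are close relatives, and 16.5% of the 50-base stretches of Rhox6 recur in Rhox9, so some of their reads may be shared. The 3 genes lie within 1 stretch of the X chromosome (37804842 to 37901770, mm10). Of 24 other genes of the cluster in the table, 14 had no count at all and 10 had counts in tdTom- alone, at a summed 0.777 to 1.68 CPM, and none was abundant enough to test. The share of all genes with counts in tdTom- alone was not taken, so nothing is read from these 10.

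**Figure D3:**
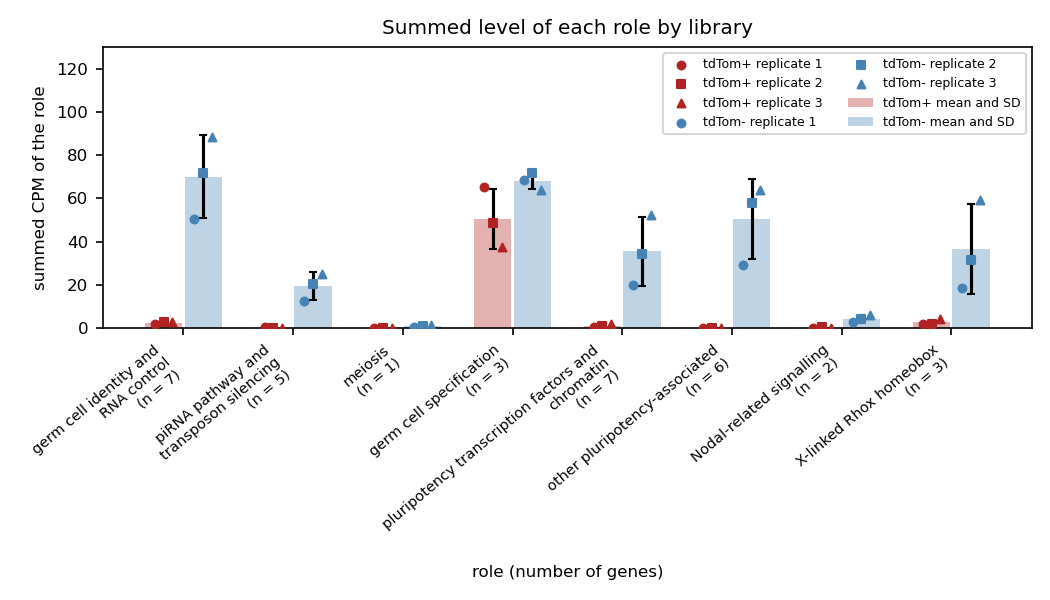
Summed CPM (y axis) of the genes of each role (x axis, with the number of genes), as the mean with SD of 3 libraries (bars) and single libraries (points), tdTom+ in red and tdTom- in blue. The fractions do not overlap in any role but germ cell specification, where Prdm1 holds both between 37.7 and 71.9 CPM.

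All 34 genes together summed to 57.0 ± 11.7 CPM in tdTom+ and 285 ± 79.4 CPM in tdTom- libraries (SD, n = 3). Without Prdm1, left out after its values were seen, the other 33 summed to 4.78, 6.18 and 8.99 CPM in tdTom+ libraries 1 to 3 and to 137, 226 and 306 CPM in tdTom- libraries 1 to 3. Library 1 was the lowest of the tdTom- fraction, and every tdTom- library was far above every tdTom+ library.

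The 34 genes also differed among the 3 tdTom- libraries. These values were in view when the genes were chosen, and the sets of 24 and 19 genes below pass a count minimum in the fraction where the genes are high, so the spread is a description too. In 28 of the 34 genes tdTom- library 1 was the lowest in CPM, and in 25 tdTom- library 3 was the highest. Among 9648 genes of the same range of counts, library 1 was the lowest in 31.3% and library 3 the highest in 35.8%. The 24 genes with at least 10 counts in every tdTom- library had a median CPM ratio of 2.09 for library 3 over library 1, of 1.77 for library 2 over 1 and of 1.47 for library 3 over 2. For the 7933 genes of the table that met the same terms the medians were 0.9997, 0.988 and 1.02. With 1 library on each side these ratios carry no test.

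The genes did not share this difference equally. Ddx4, at 12.6 ± 1.54 CPM (SD, n = 3), differed 1.28-fold between its highest and lowest tdTom- library and Mov10l1 1.47-fold. Dazl differed 1.76-fold. Among the 24 genes Rhox6 differed 7.59-fold, Rhox9 6.44-fold, Fbxo15 5.56-fold, Dnd1 5.07-fold and Tdh 4.73-fold, each with library 1 lowest and library 3 highest. Over the 19 genes with at least 100 counts in tdTom-, the coefficient of variation among tdTom- libraries had a median of 39.5%. It ran from 10.6% in Prdm1 to 89.6% in Rhox6. For 6944 genes of the same range of counts, 100 to 1957, the median was 13.7% and the upper quartile 22%. Prdm1 alone sets the top of that range, and the next highest of the 19 was Dppa5a at 1028 counts. The 6944 genes were not matched to the 19 within the range. The part of low counts in this difference was not tested.

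Library 3 is also the library with Xist reads, while libraries 1 and 2 both had Ddx3y reads. Library 2 lay above library 1 in 20 of the 24 genes and below library 3 in 18. With 1 library of that sex in the group, sex and library cannot be told apart. Some lists of other cell type markers also differed among the tdTom- libraries, and others differed little. The summed CPM of 15 mesenchyme and mural genes was 1273, 537 and 731 in libraries 1 to 3, and that of 13 hepatoblast genes was 333, 211 and 458. The part of these cell types in the spread of the germ cell genes was not tested.

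**Figure D4:**
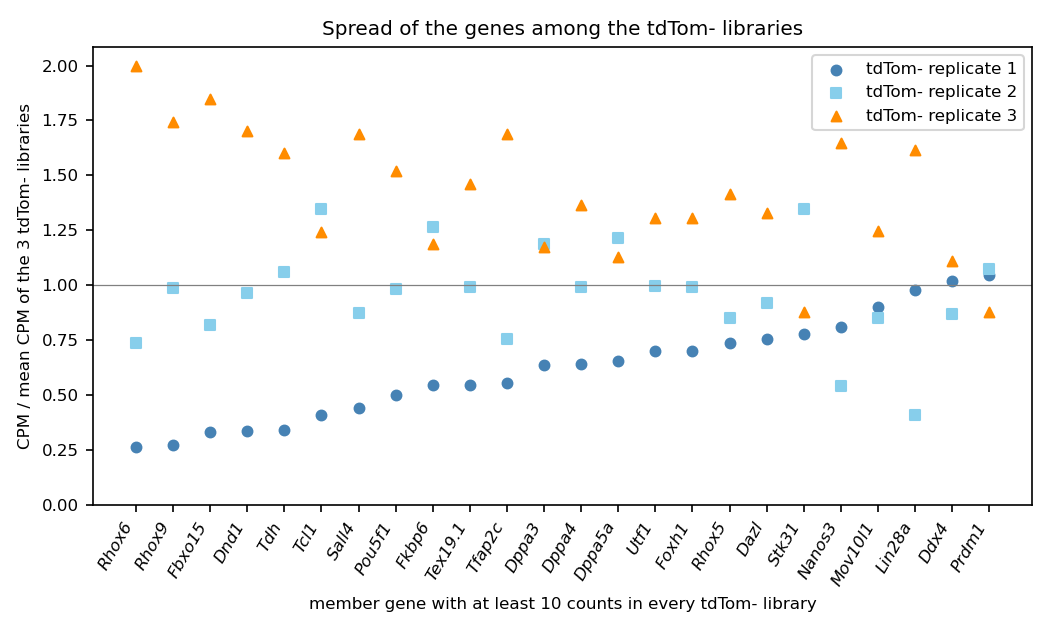
CPM in each tdTom- library divided by the mean of the 3 (y axis) for the 24 genes with at least 10 counts in every tdTom- library (x axis, sorted by library 1), with 1 point per library. Library 1 lies below 1 for all but Ddx4 and Prdm1, and library 3 lies highest for most genes.

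Other genes of germ line and pluripotency were taken from 8 lists drawn up by known function, 190 genes in all without the 34. Of these, 183 were in the table and 110 could be tested, and 2 fell, 1 rose and 107 did not pass (edgeR, adjusted over all tested genes), against 0.814% lower and 0.769% higher of all tested genes. At an unadjusted p under 0.05 the same test had 21 lower and 5 higher of the 110, and 780 lower and 625 higher of all 13142 tested genes. The 34 were taken out with this contrast in view, and the lists were drawn up with earlier results of these data known. The calls left among the 110 and their p-values were not free of these choices. The median log2 fold change (log2 change below) of the 110, tdTom+ minus tdTom-, was -0.12, where that of all tested genes was 0.00 to 2 decimals. DESeq2, run without the low-count filter, listed 10 of the 183 as lower and 1 as higher, where over all genes it listed 291 and 211. Counts by DESeq2, here and below, are over all genes of a list in the table, not only those tested by edgeR. With limma-voom 0 were listed either way, against 80 lower and 69 higher over all genes. The lower count was 0 without tdTom- library 2 or 3 and 4 without tdTom+ library 3.

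The 2 genes that fell were both in the list of germ cell migration, adhesion and survival genes, so that they are known from germ cells follows from the list. Alpl, the tissue-nonspecific alkaline phosphatase gene whose activity is the classic stain for primordial germ cells, had 36, 64 and 122 counts in tdTom- and 1, 0 and 5 in tdTom+ libraries. Its groups did not overlap, and its log2 change was -5.27 ± 0.98 (SE, edgeR adjusted p = 0.0254). Ifitm1, which encodes a surface protein of early germ cells, had 60, 118 and 127 counts in tdTom- and 15, 13 and 14 in tdTom+ libraries, a log2 change of -2.96 ± 0.47 (SE, edgeR adjusted p = 0.0115). Both genes were lowest in tdTom- library 1, as most of the 34 were. Both are expressed in other tissues as well. The call of Alpl ended without tdTom+ library 1 (adjusted p = 0.085), tdTom- library 2 (0.0829) or tdTom- library 3 (0.225) and with limma-voom (0.152), and that of Ifitm1 without tdTom- library 2 (0.0708) or 3 (0.123) and with limma-voom (0.0869).

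In the same list of 25 genes of germ cell migration, adhesion and survival, Kit had a log2 change of -0.46 ± 0.10 and missed the threshold (SE, edgeR adjusted p = 0.0581). Of the 22 tested in that list, 9 were lower and 0 higher at an unadjusted p under 0.05 (edgeR). Over all genes of the list, DESeq2 called 3 lower and 0 higher. In the list of 32 naive pluripotency genes 19 were tested. Of these, 4 were lower and 1 higher at an unadjusted p under 0.05 (edgeR). Over all genes of the list, DESeq2 called 2 lower and 1 higher. The 1 gene that rose was in this list. It was Slc2a3, a glucose transporter gene also active in platelets and neurons, with 755, 466 and 327 counts in tdTom+ and 143, 211 and 189 in tdTom- libraries (log2 change 1.4 ± 0.28, SE, edgeR adjusted p = 0.0323). Its call ended without tdTom+ library 1 or 2 or any tdTom- library (0.0607 to 0.171) and by limma-voom (adjusted p = 0.0657). It did not share the direction of the 34 genes. Summed megakaryocyte and platelet genes were at 548 to 830.0 CPM in tdTom+ against 212 to 279 CPM in tdTom- libraries. Summed neural genes were at 266 to 287 CPM in tdTom+ against 296 to 327 CPM in tdTom- libraries. The part of either cell type in the level of Slc2a3 was not tested.

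No gene of meiosis and gametes passed among the 15 tested (edgeR, 0 called; 2 lower and 0 higher at an unadjusted p under 0.05, 2 lower by DESeq2). Sohlh2, a transcription factor gene of early germ cells, had 17, 13 and 30 counts in tdTom- and 0 in all tdTom+ libraries (edgeR adjusted p = 0.0597). Tex14, an intercellular bridge gene, had 27, 27 and 22 counts in tdTom- and 11, 1 and 0 in tdTom+ libraries (edgeR adjusted p = 0.377). Slc25a31, a mitochondrial ADP/ATP carrier gene of the testis, had 24, 36 and 47 counts in tdTom- and 0, 0 and 23 in tdTom+ libraries (edgeR adjusted p = 0.595), so its reads in tdTom+ came from 1 library. Of the 34 genes of this list in the table, 10 had counts in tdTom- alone and 0 in tdTom+ alone. Among the 10, Sycp2, Syce3 and Tex101 had 1 count each. The share of all genes with counts in tdTom- alone was not taken, so nothing is read from the 10.

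Further piRNA and germ granule genes did not pass either, with 10 tested (edgeR, 0 called; 1 lower and 1 higher at an unadjusted p under 0.05, 1 lower by DESeq2). Piwil2, which encodes a PIWI protein, had 26, 66 and 33 counts in tdTom- and 12, 0 and 0 in tdTom+ libraries (edgeR adjusted p = 0.275). Tdrd7, whose product is also used outside the germ line, was abundant in both fractions, with a log2 change of 0.19 ± 0.08 (SE, edgeR adjusted p = 0.426). Asz1 had 12, 20 and 33 counts in tdTom- and 0, 14 and 0 in tdTom+ libraries (edgeR adjusted p = 0.597).

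Another 3 lists lie close to the 34 genes by function. Of 15 genes of the Lin28 and let-7 axis none passed (edgeR, 0 called; 2 lower and 1 higher at an unadjusted p under 0.05, 1 lower by DESeq2). In that list Mycn, a growth-promoting transcription factor gene, had a log2 change of -0.47 ± 0.10 (SE, edgeR adjusted p = 0.0535), Myc one of 0.23 ± 0.08 and Trim71, a let-7 target, one of -0.69 ± 0.28 (SE, edgeR adjusted p = 0.319 and 0.373). Among 12 tested Nodal pathway genes none passed (edgeR, 0 called; 3 lower and 1 higher at an unadjusted p under 0.05, 1 lower by DESeq2). The antagonist gene Lefty2 had 93, 128 and 5 counts in tdTom- and 0, 2 and 10 in tdTom+ libraries (edgeR adjusted p = 0.151), Pcsk6, a convertase gene, a log2 change of 0.44 ± 0.15 and Acvr2b, a receptor gene, one of -0.53 ± 0.20 (SE, edgeR adjusted p = 0.262 and 0.342). Of 17 genes of the polycomb-type complex and its partners that keep germ line genes silent in somatic cells, none passed (edgeR, 0 called; 0 lower and 1 higher at an unadjusted p under 0.05, 0 by DESeq2). Mga, which encodes the MAX partner of that complex, stood at 66.1 ± 8.73 CPM in tdTom+ and at 44.8 ± 8.60 CPM in tdTom- libraries (SD, n = 3; edgeR adjusted p = 0.16), Ehmt2, a histone methyltransferase gene, a log2 change of -0.22 ± 0.12 and Hdac2, a histone deacetylase gene, one of -0.12 ± 0.08 (SE, edgeR adjusted p = 0.607 and 0.673).

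**Figure D5:**
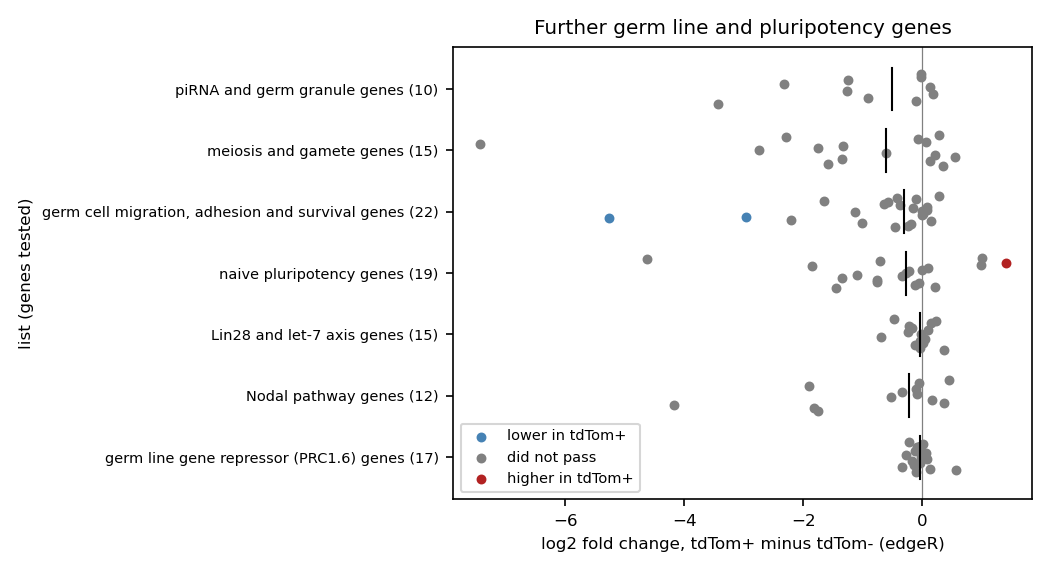
Log2 fold change of the tested genes of 7 further lists (x axis, tdTom+ minus tdTom-, 1 point per gene, median as a bar), coloured where the gene passed. Alpl and Ifitm1 are the 2 that fell and Slc2a3 the 1 that rose; the outermost point, Sohlh2 at 0 counts in tdTom+, depends on the prior count of the fit.

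Markers of the tissues around germ cells were looked at beside these genes. Of 31 genes of the somatic gonad and coelomic epithelium, 17 were tested, 1 rose and 1 fell, and the list summed to 420 to 535 CPM in tdTom+ and 381 to 452 CPM in tdTom- libraries. At an unadjusted p under 0.05 the same test had 4 higher and 5 lower, and DESeq2 called 2 higher and 4 lower. Within the list Sry had no count, Amh at most 2 in a library, Wt1 at most 17 and Nr5a1 at most 28. Other genes of the list were well detected in both fractions: Gata4 had 1887, 1166 and 1324 counts in tdTom+ and 1113, 902 and 575 in tdTom- libraries, Sox9 had 178, 42 and 88 against 311, 297 and 189, and Dhh had 169, 213 and 92 against 273, 379 and 297. Counts of Foxl2 lay between 51 and 74 in tdTom+ and between 63 and 90 in tdTom- libraries. The gene that fell was Wnt4, a signalling ligand gene of ovary and kidney, and the one that rose was Bmp2, an endothelial ligand gene. Of 21 trophoblast and extraembryonic endoderm genes 7 were tested and none passed (edgeR, 0 called; 1 lower and 2 higher at an unadjusted p under 0.05, 0 by DESeq2), with sums of 392 to 420 and 435 to 539 CPM. Prl3d1, Prl2c2, Tpbpa and Ctsq had no count in any library, while other placental genes of the list were detected: Prl3b1 had 151, 119 and 89 counts in tdTom+ and 55, 75 and 57 in tdTom- libraries, and Plac1 had 781, 681 and 589 against 454, 578 and 462.

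The remaining marker lists were 13 macrophage and myeloid genes (1 rose of 9 tested, 92.2 to 155 CPM in tdTom+ and 47.6 to 60.9 CPM in tdTom-), 14 megakaryocyte and platelet genes (8 rose of 14), 13 erythroid genes (2 rose of 11), 15 mesenchyme and mural genes, 15 neural genes, 13 hepatoblast genes and 10 epithelial genes. In the last 4 lists no gene passed (edgeR, 0 called of 14, 10, 8 and 8 tested; 2, 3, 2 and 2 lower and 0 higher at an unadjusted p under 0.05, and 1, 2, 0 and 0 lower by DESeq2). Their summed CPM in tdTom+ and tdTom- ran from 185 to 726 and 537 to 1273 for mesenchyme, from 266 to 287 and 296 to 327 for neural genes, from 159 to 176 and 211 to 458 for hepatoblast and from 1.97 to 74.9 and 38.6 to 72.4 for epithelial genes. The part of these markers in the levels of the 34 genes was not tested.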

How the data were processed

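The authors deposited raw counts, whole numbers of reads for each gene symbol in each library, and these were used. Per the submitters' processing notes, featureCounts 1.4.6, STAR 2.5.2b, Trimmomatic 0.36.4, mm10 and DESeq2 are named, without role or order. Per the labels' protocols, cDNA was amplified with a SMART-seq kit and made into libraries with Nextera XT. Another 6 per-sample columns of normalized values were not used.

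CPM use the library total; RPKM divide them by the exon length in GENCODE M21. The test was edgeR's robust quasi-likelihood F-test (version 4.0.16, R 4.3.3), two-sided and without a block, after TMM scaling and filterByExpr at a count minimum of 10. Folds of single genes divide pooled counts; their intervals are exact binomial at 95%. The 34 genes and all lists were chosen with earlier results of these data known. Named genes are all 34, up to 3 per further germ line list by smallest p (some are not reported here), the sort genes, and up to 15 non-members with at most 3 counts over tdTom+ and at least 10 in every tdTom- library; marker genes named beyond that were chosen after their values were seen. The edgeR script was tested on simulated data. Alternatives used DESeq2 1.42.0, limma-voom 3.58.1, other filters and size factors, a replicate block and leaving out each library.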

Additional observations from a re-analysis of the deposited data

How the results depend on the processing

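The 34 genes were called lower in 18 cases, and in 13 to 24 cases with DESeq2 size factors, no filter, the stricter filter (1 CPM in 3 libraries), DESeq2, limma-voom (13 cases) or the replicate block; leaving out 1 library gave 3 to 19. Over all genes 101 were higher and 107 lower, and DESeq2 gave 211 and 291, the replicate block 128 and 167, and leaving out 1 library 37 to 97 and 25 to 92. Of the further germ line genes 2 were lower and 1 higher. The lower count was 5 without a filter, 10 with DESeq2, 0 with limma-voom, 5 with the replicate block and 0 to 4 with 1 library left out; the higher count was 0 with limma-voom and 0 to 1 with 1 library left out. Sohlh2 passed without a filter (adjusted p = 0.0465) and with DESeq2 (0.00154). The summed level of the 34 in tdTom+ was 57.0 CPM, and 6.65 CPM without Prdm1, chosen after seeing the data, through the removal of that gene's own reads; the tdTom- sum stayed within 1 SD in every alternative. The cause of the other shifts was not tested. Same-numbered libraries deviated together at r = 0.11, 0.089 and 0.16, not above 0.1 in all 3, so the number was not taken to pair them, although each library correlated best with its own number. The replicate block kept 17 of the 18 calls. At these depths a level under about 0.3 CPM in 1 library was not detectable.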

Other observations

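Genes with the pattern of the 34, at most 3 counts over the tdTom+ libraries and at least 10 in every tdTom- library, numbered 39 in the table, of which 15 were among the 34 and 24 were not. They were picked on this contrast, so no test is given. Among the 15 with the most reads of the 24 were germ line genes, namely Bmp15, an egg growth factor gene, with 30, 24 and 20 counts in tdTom- libraries 1 to 3, and Sohlh2. Tuba3a, an alpha-tubulin gene, had 19, 35 and 31. Others are known mainly from other tissues: Nptx1, a neuronal pentraxin gene, had 126, 33 and 13 counts, Sall3 had 47, 28 and 14, Ric3, a chaperone gene of acetylcholine receptors, had 55, 31 and 26, and Actn2, a muscle actinin gene, had 45, 21 and 18. Fendrr, a long non-coding RNA gene of lateral mesoderm, had 42, 44 and 46. The rest of the 15 were Sgpp2, A730017C20Rik, Tmem169, Slc44a5, Wfdc2, Gna14 and Zfp385b.

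The tdTom- libraries were also ranked in CPM for the 15 genes with this pattern that belong to the germ cell and pluripotency genes. For these members, the lowest was library 1 in 13, library 2 in 2 and library 3 in 0. Their highest was library 1 in 0, library 2 in 5 and library 3 in 10. For the 24 non-members, the lowest was library 1 in 6, library 2 in 15 and library 3 in 3. The highest of the 24 was library 1 in 10, library 2 in 1 and library 3 in 13. The difference between these shares was not tested.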
